A study of Mus musculus with 5 samples.

Results

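The promoter sites described here are the 522 shared NEUROD2 sites, of 2071 in all (25.2%), that the deposited table of the study places at a promoter. Shared sites are genomic regions in which all 3 NEUROD2 antibodies gave a peak. The rule used the deposited location alone, and no score or sequence. Per the study's methods this location is itself a distance, a midpoint within 1000 bp of a TSS on either side. The other shared sites were 744 intergenic, 706 intronic and 98 exonic sites, and 1 site had no location. NEUROD2 was measured by ChIP-Seq, which recovers and sequences the DNA bound by a protein, in cerebral cortex of BALB/c mice at postnatal day 0. Cortices of 5 littermates of either sex were pooled, no animal carried an engineered allele or received a treatment, and 1 library was made with each of 3 antibodies (ab168932, ab104430 and ab109406). Antibodies 1, 2 and 3 are numbered here by library, and the methods do not say which catalogue number belongs to which. A library of a GFP antibody served the authors as the control of peak calling, and input DNA was not analysed here. The methods do not say if the chromatin of 1 pool served all antibodies, so differences between antibodies cover the antibody and the library, and all tests below count sites, not mice.

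NEUROD2 is a basic helix-loop-helix transcription factor of excitatory neurons of the cortex. It pairs with an E protein, and the pair reads the E-box, a short palindrome-like element written CANNTG, in which the inner bases set the preference of each factor. Many promoters of mammals lie in CpG islands, stretches rich in G and C in which the CpG dinucleotide has been kept, whereas enhancers mostly lie outside them.

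To show what such elements look like at promoters, 5 stretches are given below, each with at least 2 E-boxes close together. They come from the highest scoring promoter sites (Hlcs, Pxdn and Nsg2) and from genes that the study names (Cntn2 and Neurod6), and are restricted to stretches upstream of a TSS and outside annotated exons. Each reads 5′ to 3′ on the strand of the gene, in the reference sequence of GRCm38 (mm10), with every CANNTG in capitals.
Hlcs: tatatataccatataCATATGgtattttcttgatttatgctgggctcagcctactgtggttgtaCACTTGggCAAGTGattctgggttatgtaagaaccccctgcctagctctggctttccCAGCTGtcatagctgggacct
Pxdn: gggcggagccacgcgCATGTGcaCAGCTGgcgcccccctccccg
Nsg2: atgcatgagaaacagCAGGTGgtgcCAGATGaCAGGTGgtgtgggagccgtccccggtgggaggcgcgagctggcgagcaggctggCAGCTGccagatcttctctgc
Cntn2: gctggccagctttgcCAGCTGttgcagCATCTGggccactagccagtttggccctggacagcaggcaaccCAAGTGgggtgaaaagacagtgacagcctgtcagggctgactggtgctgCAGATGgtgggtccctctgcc
Neurod6: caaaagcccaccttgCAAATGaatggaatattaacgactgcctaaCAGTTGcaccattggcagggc

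The stretch of Hlcs (holocarboxylase synthetase) lies at chr16:94313865-94314006 on the minus strand, 294 to 435 bp upstream of an annotated start. The stretch of Pxdn (peroxidasin) lies at chr12:29937962-29938005 on the plus strand, 45 to 88 bp upstream. That of Nsg2, a neuronal vesicle protein, lies at chr11:32000337-32000443 on the plus strand, 20 to 126 bp upstream, and holds 4 E-boxes. The stretch of Cntn2, an axonal adhesion molecule, lies at chr1:132543849-132543988 on the minus strand, 593 to 732 bp upstream, and also holds 4. That of the bHLH factor gene Neurod6 lies at chr6:55681375-55681440 on the minus strand, 112 to 177 bp upstream, and holds 2. A match to these letters describes the reference sequence and does not show which of them is bound. The E-boxes shown for Hlcs, Pxdn and Neurod6 lie outside the central 200 bp of their sites, where E-boxes are counted below. In that window the sites of Hlcs and Pxdn hold no CAGCTG.

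Promoter sites stood apart from the other sites by their sequence. A site was called CpG-rich when its central 500 bp had an observed to expected CpG ratio of at least 0.6 and a GC content of at least 50%. Of the promoter sites, 395 of 522 (75.7%, 95% Wilson interval 71.8 to 79.2) were CpG-rich, where 22.8% of all shared sites were. The share was 2.55% at introns and 4.70% at intergenic sites, and the difference of promoters from introns was 73.1 percentage points (95% interval 69.0 to 76.7, Fisher's exact test, adjusted p = 1.72e-178). The median CpG ratio was 0.78 at promoters and 0.23 at both introns and intergenic sites, and the median GC content was 66.4%, 51.0% and 50.8%. Intervals here and below cover counting error over sites only, and p values were adjusted over the 25 tests made. Since CpG islands mark promoters in general, the same measure is given for starts of protein-coding genes that had no shared site within 1000 bp, of which 10039 of 21420 (46.9%) were CpG-rich.

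Promoter sites were also wider. Their median width was 680.5 bp, against 484 bp at introns and 481 bp at intergenic sites, and 78.5% of them exceeded the median width of all shared sites, against 41.1% of intronic sites (Fisher's exact test, adjusted p = 3.82e-40). Without antibody 2 the difference from introns fell from 37.5 to 24.0 percentage points, and that from intergenic sites from 39.8 to 24.0. Among sites that were not CpG-rich these differences were 22.2 and 25.4 points. The median width of the longest peak in a promoter site was 408 bp for antibody 1, 666.5 bp for antibody 2 and 377.5 bp for antibody 3, and at introns it was 374.5, 464.5 and 270 bp. In 473 promoter sites (90.6%) the peak of antibody 2 was the longest, and at introns in 79.3%.

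**Figure D1:**
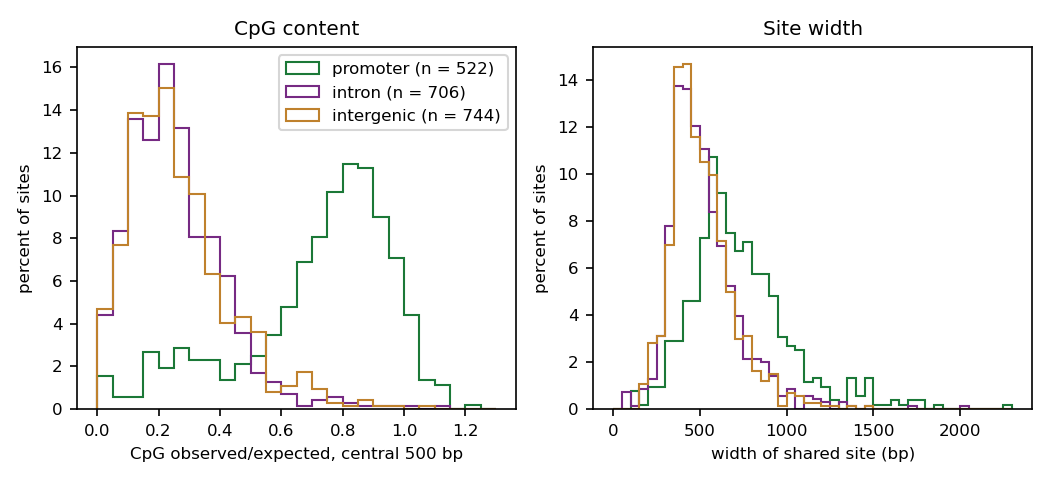
Distribution of the CpG observed to expected ratio of the central 500 bp (left) and of site width in bp (right), as percent of the sites of each location. Promoter sites peak above a ratio of 0.6 and lie at larger widths, and the curves of intronic and intergenic sites run together.

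Closeness to a TSS within 1000 bp was set by the rule, and the position inside that window is described here. With the GENCODE M21 annotation 515 promoter sites had a TSS in the window, at a median distance of 129 bp, and 400 of the 522 sites (76.6%) spanned a TSS. Of the 515 sites, 224 (43.5%) lay within 100 bp of the TSS, 135 from there to 250 bp, 86 to 500 bp and 70 to 1000 bp. The share of CpG-rich sites was 85.7% within 100 bp and 44.3% beyond 500 bp, and the share with the E-box CAGATG was 24.6% and 40%. Relative to the nearest TSS, 186 midpoints lay upstream and 327 downstream, so that 36.3% were upstream (95% Wilson interval 32.2 to 40.5, exact binomial test against equal sides, adjusted p = 8.90e-10). This side cannot be read from the transcripts in the deposited table. It gives none for 129 promoter sites, of which 107 lay upstream of the nearest TSS, and by the transcripts it does give 2.99% of the midpoints were upstream. The deposited class also leaves out sites near a TSS. Of all shared sites 644 had a TSS in the window, against the 515 promoter sites. The side of those left out was not counted. The test therefore covers the deposited class only, and its share cannot be read as that of all sites near a TSS.

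**Figure D2:**
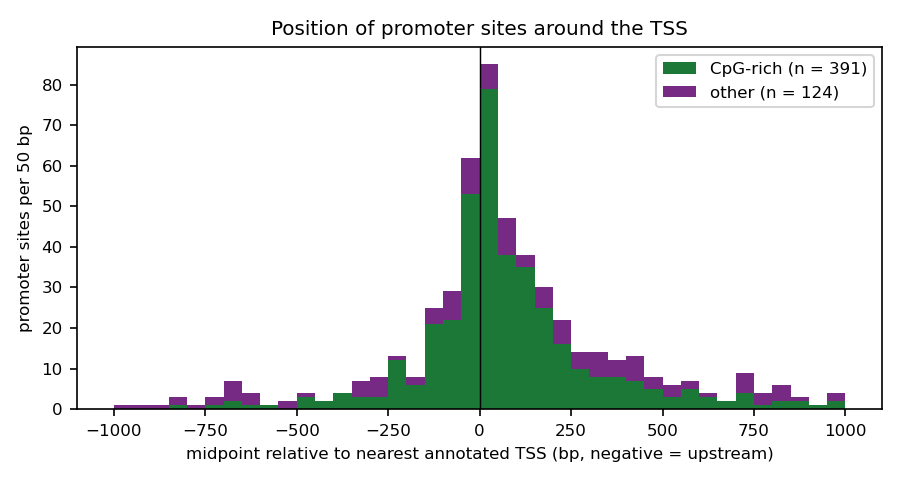
Number of promoter sites per 50 bp by the position of their midpoint relative to the nearest annotated TSS (bp, negative is upstream), with CpG-rich and other sites stacked. Most midpoints lie within 250 bp of the TSS, and more lie downstream than upstream.

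At the edge of the rule, the 3 promoter sites farthest inside 1000 bp of a protein-coding TSS were those of Cldn3 (985 bp, score 965.9), Trim8 (972 bp, score 576.7) and Krtap9-5 (959 bp, score 673.5). Of the sites of other locations that lay beyond 1000 bp, the nearest were at Hsp90ab1 (1021 bp, score 1461), Nhsl2 (1039 bp, score 402.5) and Dlgap3 (1039 bp, score 383.4). This edge is not clean. In GENCODE M21, 528 of all shared sites had a protein-coding TSS within 1000 bp, and only 472 of the promoter sites did. Some sites placed elsewhere in the deposited table thus lay inside the window. By the deposited transcript, the farthest sites within 1000 bp were those of Cldn3 (985 bp), Lrp8 and Gm17315 (both 978 bp). The sites nearest to the TSS of their deposited transcript were those of Ssh2, with its midpoint at the TSS, and of Faf1 and Pkia, at 1 bp. A further 7 promoter sites lay beyond 1000 bp of any TSS of this annotation, among them that of Gm22007, at 8970 bp.

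Promoter sites did not differ detectably from intronic and intergenic sites in their total score, but the score was made up differently. The deposited score is the sum, over the 3 antibodies, of minus 10 log10 of the p of each peak, and read depth is unknown from these files. The median score was 573.7 at promoters, 569.8 at introns and 574.9 at intergenic sites. A score above the median of all shared sites was found at 50% of promoter and 49.3% of intronic sites, a difference of 0.71 percentage points (95% interval -4.93 to 6.34, Fisher's exact test, adjusted p = 0.864). By antibody, the median at promoters was 129.6 for antibody 1, 346.8 for antibody 2 and 104.4 for antibody 3. At introns the medians were 189.6, 284.6 and 105.1, so that antibody 1 was lower, antibody 2 higher and antibody 3 about level at promoters. Antibody 2 had the highest score in 493 promoter sites (94.4%, against 84.9% of all shared sites), in 90.8% of the 98 exonic sites (95% Wilson interval 83.5 to 95.1, not tested) and in 80.3% of intronic sites (Fisher's exact test, adjusted p = 3.04e-13). The median ratio of antibody 2 to antibody 1 was 2.39 at promoters and 1.40 at introns.

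The total rested on this balance. Without antibody 2, a score above the median was 12.8 percentage points less frequent at promoters than at introns, and without antibody 1 it was 8.92 points more frequent. Between antibody 2 and antibody 3 alone, the share of sites with the higher score for antibody 2 was 98.5% at promoters and 97.0% at introns, a difference that did not pass the test (Fisher's exact test, adjusted p = 0.147). Per bp of site, the score was above the median in 30.5% of promoter and 56.9% of intronic sites. Across the promoter sites, Spearman's rho between antibodies was 0.67 for antibodies 1 and 2, 0.66 for 1 and 3 and 0.71 for 2 and 3, and at introns 0.81, 0.73 and 0.74. These correlations are descriptions over sites selected to have a peak of each antibody.

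**Figure D3:**
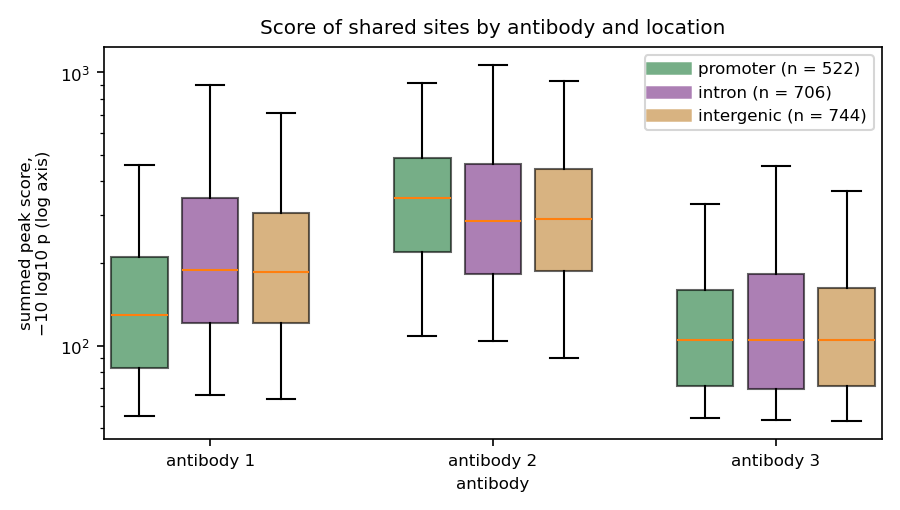
Summed peak score (minus 10 log10 p, log axis) of shared sites by antibody and location. Boxes are quartiles with the median as a line, and whiskers reach the 5th and 95th percentiles. The promoter box is lowest of the 3 locations for antibody 1 and highest for antibody 2.

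CpG content went with this balance among the promoter sites themselves. Antibody 2 had the highest score in 97.2% of the 395 CpG-rich and 85.8% of the 127 other promoter sites (Fisher's exact test, adjusted p = 1.29e-05). This difference of 11.4 percentage points was 4.84 at a CpG ratio of at least 0.75 (Fisher's exact test, adjusted p = 0.0269). It was 7.56 without the keratin-associated gene cluster described below. Without antibody 1 the shares were 98.7% and 97.6%, and the difference did not pass (Fisher's exact test, adjusted p = 0.423). The median ratio of antibody 2 to antibody 1 was 2.65 in the former and 1.62 in the latter. The total score did not pass a test between them (difference 1.56 percentage points, 95% interval -8.34 to 11.4). Between promoter and intronic sites that were not CpG-rich, the share with antibody 2 highest differed by 5.45 percentage points (95% interval -2.20 to 11.4), which did not pass the test. A ratio of antibody 2 to antibody 1 above the median was 40.9 points more frequent at all promoter sites than at all introns and 37.3 points more than at all intergenic sites. Among sites that were not CpG-rich these differences were smaller, at 14.6 points against introns (Fisher's exact test, adjusted p = 0.00443) and 12.1 points against intergenic sites (Fisher's exact test, adjusted p = 0.0235). The part of CpG content in the balance of antibodies was not tested further.

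Among the highest ratios of antibody 2 to antibody 1 were those at Zhx3 (9.07, with scores of 76.2, 691.6 and 86.8 for antibodies 1, 2 and 3) and Insig1 (8.92), and both sites were CpG-rich. The lowest were at Krtap4-6 (0.52), A230108P19Rik (0.55) and Tmem119 (0.67), a gene known as a marker of microglia, and none of these was CpG-rich. For antibody 3 to antibody 1 the ratio was highest at Klf7 (2.92), Insig1 (2.78) and Cacnb3 (2.59), a calcium channel subunit, and lowest at Ubtf (0.24), Tmem119 (0.25) and Lrrn1 (0.26).

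Fewer promoter sites than intronic or intergenic sites held an E-box in their centre, and the forms differed. At least 1 E-box was found in the central 200 bp of 397 promoter sites (76.1%, against 89.4% of all shared sites), 92.6% of intronic and 95.3% of intergenic sites. The difference from introns was -16.6 percentage points (95% interval -20.8 to -12.5, Fisher's exact test, adjusted p = 7.57e-16), and that from intergenic sites was -19.2 points, or -12.2 without antibody 2. In the central 100 bp the differences were -29.2 and -30.0 points. Over whole sites, which are wider at promoters, 98.3% of promoter, 99.0% of intronic and 98.4% of intergenic sites held an E-box, and neither difference passed (Fisher's exact test, adjusted p = 0.411 and 1). The form CAGATG, counted with its reverse complement, was present in 28.4% of promoter sites, against 54.7% of all shared sites and 63.3% of intronic sites (Fisher's exact test, adjusted p = 4.65e-34). The palindrome CAGCTG was present in 41.0% of promoter, 42.0% of all shared and 40.2% of intronic sites, a difference from introns of 0.77 percentage points (95% interval -4.76 to 6.33, Fisher's exact test, adjusted p = 0.864). Over whole sites CAGCTG was 13.6 points more frequent at promoters than at introns and 10.8 points more than at intergenic sites (Fisher's exact test, adjusted p = 2.40e-06 and 1.57e-04). In the central 100 bp the differences were -4.34 points against introns, which did not pass, and -6.68 points against intergenic sites, which did (Fisher's exact test, adjusted p = 0.0998 and 0.011). CACCTG was present in 22.0% of promoter, 19.0% of intronic and 22.3% of intergenic sites, and CACGTG in 7.47%, 4.11% and 3.49%, which were not tested. CACGTG itself holds a CpG. It was present in 6.84% of CpG-rich promoter sites and in 8.21% of CpG-rich gene starts without a shared site. Of the promoter sites, 125 held no E-box in the central 200 bp, and 9 held none anywhere in the site.

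Set against the flanks 2000 bp beyond each edge, the centres of promoter sites held 1.33 times as many E-boxes (exact sign test per side, the larger p taken, adjusted p = 0.00113). Whole sites held 1.03 times as many as flanks of equal length, which did not pass (exact sign test, adjusted p = 0.964). In the centres the ratio was 5.14 for CAGCTG (exact sign test, adjusted p = 3.66e-27; 3.04 over whole sites) and 1.90 for CAGATG (exact sign test, adjusted p = 4.21e-06). Other forms were less frequent in the centre than in the flanks, as CACATG (0.23 times) and CAAATG (0.22 times), and 2 were more frequent, CACCTG (1.44 times) and CACGTG (3 times), none of which was tested. At introns the ratio was 4.87 for CAGCTG and 6.26 for CAGATG. For CACGTG, the share at CpG-rich gene starts without a shared site is given above, and it was not below that of CpG-rich promoter sites.

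In their centre, CpG-rich promoter sites held E-boxes less often than the other promoter sites. Of the 127 promoter sites that were not CpG-rich, 92.9% held an E-box, against 70.6% of the CpG-rich ones (Fisher's exact test, adjusted p = 7.01e-08), a difference of -22.3 percentage points that was -13.0 without antibody 2 and -36.7 in the central 100 bp. When a CpG ratio of at least 0.75 was required, it was -13.3 points. Over whole sites it was -1.24 points and did not pass (Fisher's exact test, adjusted p = 0.869). CAGCTG was present in 52.8% and 37.2% (Fisher's exact test, adjusted p = 0.0032), and CAGATG in 48.0% and 22.0% (Fisher's exact test, adjusted p = 9.73e-08). The difference in CAGCTG did not pass the test in 3 other settings, at -5.99 percentage points when a CpG ratio of at least 0.75 was required, -9.03 with TSSs of protein-coding transcripts and -7.18 over whole sites. When only sites that were not CpG-rich were kept at both locations, the share with an E-box differed between promoters and introns by -0.11 percentage points (95% interval -6.18 to 3.84), and the share with CAGCTG was 12.5 points higher at promoters (Fisher's exact test, adjusted p = 0.0195). Against intergenic sites the latter difference was 10.2 points and did not pass (Fisher's exact test, adjusted p = 0.062). CAGATG remained less frequent at promoters in this setting, by -16.4 points against introns (Fisher's exact test, adjusted p = 0.00154) and -18.4 points against intergenic sites (Fisher's exact test, adjusted p = 3.24e-04). The promoter sites of this setting include the 11 of the keratin-associated cluster described below, of which 9 held CAGCTG. Without the 11, 50% of promoter sites that were not CpG-rich held CAGCTG, against 40.3% of such intronic sites. That comparison was not tested. In CpG-rich promoter sites the centre held 0.97 times as many E-boxes as the flanks, but 3.44 times as many of the form CAGCTG. For CAGATG the ratio there was 1.25, which did not pass (exact sign test, adjusted p = 0.341). In the other promoter sites the ratios were 2.59 for E-boxes, 14.4 for CAGCTG and 4.41 for CAGATG (exact sign test, adjusted p = 3.18e-09 for CAGATG). These sites include the keratin-associated cluster, in which a centre held up to 8 CAGCTG. Over all promoter sites the CAGCTG ratio was 5.14 with the cluster and 4.36 without it. The ratio of 14.4 was not recomputed without it. At CpG-rich starts of protein-coding genes without a shared site, 40.6% held an E-box in the 200 bp around the start, 9.24% held CAGCTG and 4.34% CAGATG. Those windows are centred on gene starts and not on site midpoints, and are given as a description.

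**Figure D4:**
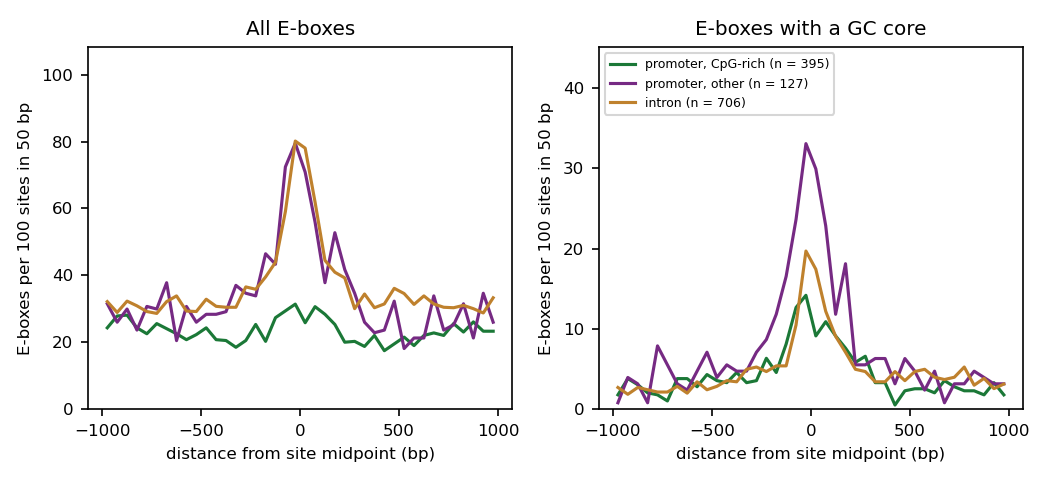
E-boxes per 100 sites in 50 bp bins by distance from the site midpoint (bp), for all E-boxes (left) and for those with the core GC (right), in CpG-rich promoter sites, other promoter sites and intronic sites. Promoter sites that are not CpG-rich rise at the midpoint like intronic sites, and CpG-rich ones rise for the GC core but hardly for all E-boxes.

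Letters of other promoter elements were searched on both strands. The GC box GGGCGG was present in 50% of promoter centres, 59.7% of the CpG-rich ones and 8.64% of intronic centres. At CpG-rich gene starts without a shared site it was present in 67.8%. The CCAAT box (CCAAT) was present in 17.0% of promoter sites and 28.1% of gene starts without a site, the ETS element (CCGGAAG) in 6.70% and 9.47%, and TATAAA in 2.30% and 8.15%. Those gene starts are less often CpG-rich than the promoter sites. Between CpG-rich promoter sites and CpG-rich gene starts the shares were 17.2% and 28.4% for CCAAT. They were 7.85% and 16.9% for the ETS element, and 1.52% and 2.86% for TATAAA. None of these was tested. Protein-coding TSSs on both strands within 1000 bp, a divergent promoter, were found at 58 promoter sites (11.1%), and at 11.0% of all starts of protein-coding genes. The share was 12.2% at CpG-rich promoter sites and 18.6% at CpG-rich gene starts without a shared site. At the promoter sites and gene starts that were not CpG-rich it was 7.87% and 3.72%. These shares were not tested.

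The highest scoring promoter site was that of Krtap16-1, a keratin-associated protein gene, at chr11:99985039-99986631, with a score of 8440. Its scores were 3100, 3100 and 2240 for antibodies 1, 2 and 3, of which the first 2 were at the upper limit of the lists. It ranked first among all 2071 sites. The site of Prss36, a serine protease gene, had scores of 1981, 2977 and 1404, and no E-box in its central 200 bp. The site of Hlcs had scores of 1169, 2380 and 1046. Antibody 2 exceeded antibodies 1 and 3 in all of the 12 highest sites but Krtap16-1, where antibodies 1 and 2 were equal.

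Further genes among these 12 sites encode transcription factors. The site of Tfap4, itself an E-box binding bHLH factor, had scores of 1395, 1932 and 966.1, and 3 E-boxes. The site of Zbtb18, a zinc finger repressor of cortical neurons, had scores of 1246, 1735 and 557.7, with its midpoint 78 bp upstream of the TSS and 4 E-boxes. Deaf1, also a transcription factor, had scores of 907.8, 1724 and 396.6. The remaining sites were those of Btbd17 (score 4541), Slc35c2 (4258), Rimbp3 (3610, with 7 E-boxes), Pxdn (3178), Gm22007 (2849) and Nsg2 (2832). Of the 12 sites, those of Prss36, Hlcs, Tfap4, Rimbp3, Pxdn and Deaf1 were CpG-rich. The lowest scores were at Tmem181b-ps (171.6), Rpsa (188.8), a ribosomal protein gene, and Nxph3 (190.6).

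**Figure D5:**
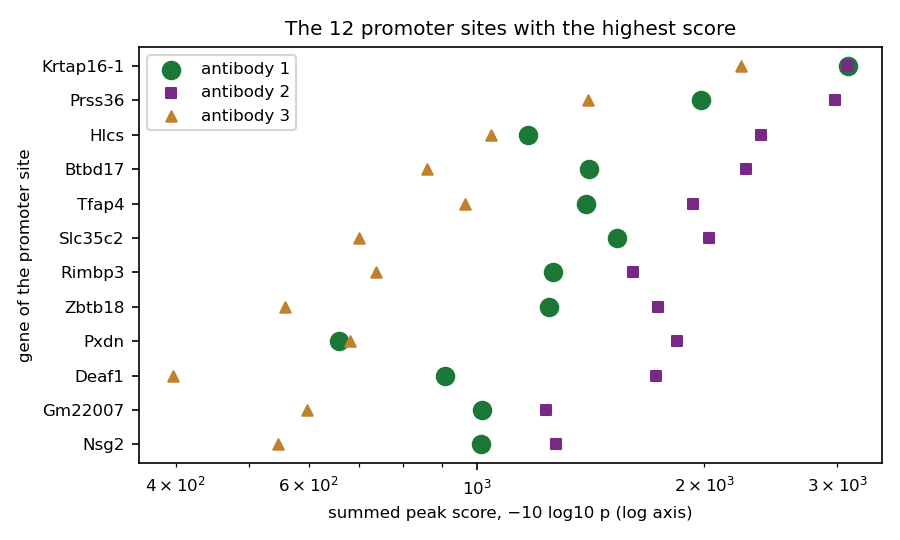
Summed peak score (minus 10 log10 p, log axis) of each antibody at the 12 promoter sites with the highest total score. Antibody 2 lies highest in every site except Krtap16-1, where it equals antibody 1 at 3100.

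Besides the highest scoring sites, 5 genes taken from the study's text had a promoter site. Nrcam, an adhesion molecule of axons, had scores of 163.3, 727.5 and 155.2 for antibodies 1, 2 and 3, in a CpG-rich site of 1464 bp with no E-box in its centre. Cntn2 had scores of 212.7, 483.2 and 163.8, and Neurod6 had 218.1, 378.1 and 189.4, with its midpoint 15 bp upstream of the TSS. Neurod2 itself had a promoter site with scores of 142.4, 475.2 and 102.3, 66 bp downstream of the TSS. Bhlhe22 had the most even scores of the 5, with 184.2, 200.2 and 147.4. Antibody 2 was the highest in each of these sites.

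The promoter sites carried 555 gene symbols, and 470 of them were protein-coding in GENCODE M21, or 2.14% of all protein-coding symbols. Another 32 symbols were not in that annotation. A single gene was given for 476 sites and several for 46, and 42 of the genes also had a shared site in an exon or intron. Of 605 genes in 23 lists of functions, 41 (6.78%) had a promoter site. The lists favour genes of neurons and were chosen with results of these data known, so the counts describe the members and no list is called particular.

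Of 18 neuronal bHLH factor genes, Neurod2, Neurod6 and Bhlhe22 had a promoter site, and of 7 genes of E proteins and their Id partners, Tcf12 (504.1), which encodes an E protein. Of 30 transcription factors of cortical layers, Pou3f2 (608.3), Foxp2 (427.2) and Zbtb18 did. In the Notch pathway these were Hes6 (1174) and the ligand Dner (242.3), 2 of 21, and the midpoint of the latter lies 1214 bp from the nearest protein-coding TSS of Dner.

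Of 31 adhesion genes, Nrcam, Chl1 (383.0), Cntn2 and Cdh2 (586.1), which encodes N-cadherin, had a promoter site. Among 34 genes of the cytoskeleton and migration there were 6, namely Pafah1b1 (267.3), Tubb2b (794.0), Map1b (284.3), Stmn1 (516.6 and 451.9 at 2 sites), Lrp8 (303.8) and Kif1a (307.6). The site given for Lrp8 lies 978 bp from a TSS of Lrp8os1, and beyond 1000 bp of a protein-coding TSS of Lrp8. Of 33 axon guidance genes, the receptors Ephb1 (232.0), Ephb2 (601.0) and Plxna4 (554.8) had one. The sites of Stmn1 lie next to each other and share a peak, so their scores by antibody could not be separated.

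Among the genes of vesicle release with a promoter site was Cplx2 (1084), and of 28 receptor genes it was Grin1 (1382), which encodes the obligatory NMDA receptor subunit. None of 20 postsynaptic scaffold genes had a promoter site, a count near the 2.14% of all protein-coding symbols. Of 32 ion channel genes Kcnn2 (981.3) had a promoter site, and of 13 genes of calcium/calmodulin kinases Camk2n2 (385.5) and Camkk1 (244.8).

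Jund (1245) and Nr4a3 (1151) were found among 20 immediate early genes, where the site given for Jund lies 85 bp from a TSS of Gm11175 and 1046 bp from a protein-coding TSS of Jund, and Kmt2a (2040) and Tet3 (351.5) among 36 chromatin regulators. The lists of ribosomal proteins, splicing, the proteasome, oxidative phosphorylation and Wnt, BMP and Shh signalling had 1 gene each, Rpl32 (648.0), Rbfox3 (1592), Psmd3 (980.8), Uqcrfs1 (478.0) and Smad7 (391.0). No gene of the lists of interneuron lineage (21 genes) or cell cycle (29 genes) had a promoter site, also near that share. Of 20 markers of glia and endothelium, the microglial receptor gene Cx3cr1 was given for 1 site (662.0), which the table also assigns to Gorasp1 and whose midpoint lies 56 bp from a TSS of Gorasp1. Tissue was not sorted, so binding cannot be assigned to a cell type from these data.

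A cluster of keratin-associated protein genes on chromosome 11, singled out after its values were seen, held 11 promoter sites within 443.9 kb. All 11 held an E-box in their centre and 9 held CAGCTG, and none was CpG-rich. Sites with many E-boxes lay there, with 11 at Krtap4-7, 9 at Gm11563, at Krtap4-6 and at one site of Krtap9-5, and 8 at the other and at Gm11567. Gm19402, on chromosome 10, also had 8. Antibody 2 was below antibody 1 in 5 of the 11 sites, and their median score was 397.1. Genes of this family resemble each other in sequence, and how reads that map to several copies were treated is not given in the sources used here, so these sites are uncertain. Without the 11 sites, the CpG-rich and other promoter sites still differed in CAGCTG (37.2% and 50%, Fisher's exact test, adjusted p = 0.0219).

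Peaks at promoters were far more numerous than shared promoter sites. Antibody 1 gave 1379 peaks within 1000 bp of a TSS, antibody 2 gave 4603 and antibody 3 gave 1094. Of these, 38.1%, 11.2% and 49.8% overlapped a promoter site described here. The median score of those peaks that did not was 70.7, 85.0 and 64.4, against 125.4, 342.5 and 94.4 for the peaks in promoter sites.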

How the data were processed

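ChIP-Seq peaks of 3 NEUROD2 antibodies in P0 cortex were analysed. Per the study's methods, the authors mapped reads to mm10 (GRCm38) with Bowtie and called peaks with MACS against the GFP library. The deposited peak lists give a score per peak (minus 10 log10 p, from 50 to 3100), not scaled between antibodies and without read counts, so depth is unknown. The deposited table gives 1 score per shared site, which equalled the sum of the peak scores in 518 of 522 promoter sites.

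Starts were converted to 1-based coordinates, and sequence was read from the RefSeq copy of GRCm38. E-boxes were counted in the central 200 bp and in equal windows 2000 bp beyond each edge, and CpG content in the central 500 bp. Shares were compared by two-sided Fisher's exact tests with Newcombe intervals. Centres were compared with each flank by exact sign tests, taking the larger p, in place of the planned comparison with the mean of both flanks, which favoured the averaged windows. P values were adjusted by Benjamini-Hochberg over 25 tests, at 0.05. The tests were checked on simulated data. Python 3.11.15, scipy 1.17.1, statsmodels 0.14.6 and pysam 0.24.0 were used.

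The members and the gene lists were chosen with earlier results of these data known. Sites named were the 12 highest and 3 lowest scores, genes of the study and of the lists, the 3 extreme antibody ratios on each side, the 5 sites with most E-boxes, and those nearest to and farthest from the TSS. Alternatives changed the annotation, windows, CpG and score definitions, and left out each antibody. Results for some items are not reported here.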

Additional observations from a re-analysis of the deposited data

How the results depend on the processing

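Of 238 recomputed values, 197 kept their direction and their side of the threshold. Differences are in percentage points. Leaving out 1 antibody in turn moved the difference in scores above the median from -12.8 to 8.92 (promoter against intron), from -14.5 to 8.53 (against intergenic) and from -10.1 to 10.1 (CpG-rich against other promoter sites). It moved antibody 2 highest from 1.44 to 14.4, from 1.69 to 12.9 and from 1.14 to 10.8 in the same comparisons, where the lowest, without antibody 1, did not pass the test, and CAGCTG against intergenic from -2.78 to 2.47. With antibody 2 left out, antibody 2 highest has no value, and the ratio of antibody 2 to 1 was not recomputed without an antibody.

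The score differences near 0 changed sign with any annotated TSS (0.56 against intergenic, -0.53 for CpG-rich sites), with protein-coding TSSs (-1.98 for CpG-rich sites) and with peak scores of at least 100 (-1.72 and 5.81 against intron and intergenic). Per bp they were -26.5, -27.6 and -23.2. CAGCTG against intron was -1.40 with protein-coding TSSs, -0.14 with scores of at least 100, -0.11 without the keratin-associated cluster, and -4.34 in the central 100 bp, where it was -6.68 against intergenic. Over whole sites, which are wider at promoters, CAGCTG was 13.6 and 10.8 higher, and the following did not pass the test: any E-box -0.73 and -0.11, the E-box ratio to flanks 1.03, and CpG-rich against other sites -1.24 (E-box) and -7.18 (CAGCTG). The last was -9.03 with protein-coding TSSs and -5.99 at a CpG ratio of 0.75, neither past the test.

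Among sites that are not CpG-rich, chosen as a setting after seeing the data like the cluster, promoters against intron and intergenic gave -0.16 (score against intron), -0.11 and -3.0 (E-box), 12.5 and, not passing the test, 10.2 (CAGCTG) and 5.45 and 4.44 (antibody 2 highest). Width above the median gave 22.2 and 25.4 there. The keratin-associated cluster was kept in all values of this setting. Only in CpG-rich promoter sites, the ratio to flanks was 0.97 for E-boxes and 1.25 for CAGATG, neither past the test. The cause of these changes was not tested. No paired analysis was possible because the 3 NEUROD2 libraries form a single group. Depth is unknown, and 1 library per antibody gives no measure of variation between mice.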
